A study of Homo sapiens with 4 samples.

Results

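Mid-length internal introns are the introns of over 1000 and up to 10000 bp that are neither the first nor the last of their gene. They were chosen by length and place alone, without any read count: 56393 of the 142206 introns used, in 10734 of 15902 genes, counting 1 transcript per gene. Their median length was 2468 bp, and a gene with any of them had a median of 3 and at most 93. RNA came from SUM159 cells, an established human line of triple-negative breast cancer. The cells received H3B-8800, a small molecule that modulates the spliceosome, or its vehicle DMSO for 12 h, with 2 libraries per group that the labels call biological duplicates. All 4 libraries were strand-specific and made from polyA-selected RNA of the cytoplasmic fraction. The comparison asks how reads inside these introns differed with the compound in the cytoplasmic fraction. No nuclear library was compared, so RNA carried over from the nucleus was not tested.

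Introns are removed by the spliceosome, which recognises a 5′ splice site, a branch point, a pyrimidine-rich stretch and a 3′ splice site. The SF3b complex, part of the U2 particle, holds the branch point region, and H3B-8800 binds SF3b. Introns of moderate to large size are usually recognised across the exons that flank them, and RNA with a retained intron is usually kept in the nucleus or degraded, so polyadenylated cytoplasmic RNA holds few intronic sequences in untreated cells.

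The sequences that splicing joins show which exon ends lie beside an intron. The 15 bases on each side of the junction are given 5′ to 3′ in the direction of the gene, with the last base of the upstream exon and the first base of the downstream exon in capitals, from GENCODE release 29 transcripts on GRCh38. The first 3 introns are among those whose intronic reads rose most, and the last 2 are introns whose intronic reads fell.
TMEM120B intron 3: gcccaagaagaacgGGctctacttgaacct
AURKB intron 4: tgcgccctccctgaGGaggaagacaatgtg
EIF2AK1 intron 8: ttgggtcagacagaGGcacagtaccacctg
PRRC2C intron 12: acagctgtaataaaGAggaggaacccgttt
CENPF intron 16: ttgaagaaaaccaaGAtggacaatctaaaa
A junction was read for 56333 of the introns (99.9%). The upstream exon ended in AG in 56.3% of them, against 55.6% of all introns, and the downstream exon began with G in 48.0%, against 49.4%.

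The sequence of the intron itself was read only where an annotated transcript contains it as exon, for 661 introns (1.17%), so GC content and splice site strength could not be compared over the whole class. Of these, 649 began with GT and ended with AG, 10 had GC and AG, 1 had AT and AC and 1 AT and AG. The ends of 3 introns with raised ratios are given because they are the only introns named here whose sequence could be read; capitals mark the first 2 and the last 2 bases.
RPL11 intron 3, first 12 bases: GTatgaatattt
RPL11 intron 3, last 50 bases: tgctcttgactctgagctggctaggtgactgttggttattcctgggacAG
CHORDC1 intron 2, first 12 bases: GTatactttata
CHORDC1 intron 2, last 50 bases: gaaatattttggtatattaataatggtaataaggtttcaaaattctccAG
DDX5 intron 11, first 12 bases: GTtagtacaaac
DDX5 intron 11, last 50 bases: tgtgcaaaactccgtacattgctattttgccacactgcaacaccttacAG
The 17 bases that end 4 bases before the 3′ end were 52.9% C or T in RPL11 and CHORDC1 and 58.8% in DDX5, below the middle range of the 661 introns (median 76.5%, quartiles 64.7% and 82.4%). The branch-point-like motif CTNAC was present in the last 50 bases of 23.4% of the 661 and in 16.6% of windows of 50 bases at their middle; its reverse complement was present in 9.08% and 15.1%. DDX5 intron 11 held the motif there, and the other two did not, which says only that these letters were or were not in that window.

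For each intron, intronic reads are those counted inside it and spliced reads those that span it. Library totals recovered from the deposited values were 58000000 and 62000000 reads for H3B-8800 and 64000000 for both DMSO libraries. Mid-length internal introns held 377524 and 411891 intronic reads under H3B-8800 and 201126 and 198133 in DMSO, which was 36.5% and 36.6% of all intronic reads against 32.0% and 31.5%. They held 3274622 and 3488427 spliced reads against 3963934 and 3950677. Of the 56393 introns, 13493 had no read of either kind in any library and 29491 no intronic read. An annotated exon of any gene lay inside 16195 of them and can itself supply intronic reads; 40198, in 9132 genes, held none and are called exon-free below. The cells had the spliced reads of a mesenchymal-type breast line: VIM lay between 4880 and 6130 CPM (spliced reads of the gene scaled to equal library size), CAV1 between 238 and 264 and KRT18 between 285 and 446. ESR1, PGR and the T cell gene CD3E had no spliced read, and CD14, a monocyte gene, was at most 0.0798 CPM.

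One intron held a large part of the exon-free reads. Intron 4 of HFM1, a helicase gene of meiotic recombination (chromosome 1, 91385835 to 91394092, 8258 bp), held 32867 and 34339 intronic reads in the treated and 21380 and 19134 in the control libraries, but 1, 1, 0 and 0 spliced reads. That was 21.0% and 20.4% of all exon-free intronic reads under H3B-8800 and 27.9% and 25.7% in DMSO. The other 37 introns of HFM1 had no intronic read and 1 spliced read over all libraries. Sums over exon-free introns are therefore given with and without this intron, except those within genes that hold both classes compared.

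Intronic reads in mid-length internal introns more than doubled against spliced reads. Over the whole class there were 11.5 and 11.8 intronic reads per 100 spliced reads in the H3B-8800 libraries and 5.07 and 5.02 in the DMSO libraries, or 11.7 ± 0.20 against 5.04 ± 0.042 (SD, n = 2 each), a ratio of 2.31. In exon-free introns the values were 8.58 and 8.71 against 3.51 and 3.40, a ratio of 2.50. Without HFM1 intron 4 they were 6.78 and 6.94 against 2.53 and 2.53, or 6.86 ± 0.11 against 2.53 ± 0.0016 (SD, n = 2 each), a ratio of 2.71. Without ROS1 intron 26 as well, described further on, the ratio was 2.86. In each case both treated libraries lay above both control libraries by far more than the replicates differed. The two-sided exact permutation p was 0.333, the lowest value that 4 libraries in 2 groups allow. All values are shares of a library's reads, so fewer cells and less RNA per cell cannot be told apart. The share of exon-free introns with any intronic read was 25.9% and 27.5% under H3B-8800 and 17.9% and 18.1% in DMSO.

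Introns with an annotated exon had more intronic reads in both groups and a smaller ratio. They had 15.4 ± 0.29 intronic reads per 100 spliced reads under H3B-8800 and 7.01 ± 0.0018 in DMSO (SD, n = 2 each), a ratio of 2.21. Where the exon lay on the opposite strand only, in 1674 introns, the ratio was 2.97, from 12.3 ± 0.22 against 4.14 ± 0.096. The 571 introns inside an exon of an annotated retained_intron transcript, a transcript model that keeps the intron, had 10.9 ± 0.25 against 5.37 ± 0.053, a ratio of 2.04. Introns already annotated as retained thus had more intronic reads per spliced read in DMSO than exon-free ones, and a ratio no higher than that of the class.

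The change was smaller than in shorter internal introns and larger than in longer ones. Exon-free internal introns of over 150 and up to 1000 bp had 1.498 ± 0.053 intronic reads per 100 spliced reads under H3B-8800 and 0.406 ± 0.0027 in DMSO, a ratio of 3.69. In those of over 10000 and up to 50000 bp the values were 20.8 ± 0.093 against 13.5 ± 0.039, a ratio of 1.54. On the log2 scale the change in mid-length introns was lower than in the short ones (mid-length minus short, -0.559, SD of the difference 0.041) and higher than in the long ones (0.704, SD 0.036). Without HFM1 intron 4 these differences were -0.443 and 0.820, and without ROS1 intron 26 as well -0.365 and 0.899. Against the short class the difference was -0.558 within the 6042 genes that hold both, but only -0.298 with exon-holding introns included and -0.264 without the 1% of introns with the most intronic reads in each class. Against the long class it was 0.447 within the 2190 genes that hold both, less than over all genes but in the same direction. The differences within genes that hold both were not run without HFM1 intron 4 or ROS1 intron 26. Any part of these introns in them was not tested.

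Place in the gene was set beside introns of the same length range. First introns of over 1000 and up to 10000 bp had 5.09 ± 0.24 intronic reads per 100 spliced reads under H3B-8800 and 2.54 ± 0.0031 in DMSO, a ratio of 2.00. In last introns these levels were 12.7 ± 0.088 and 3.59 ± 0.049, a ratio of 3.54. Internal introns lay between them: their log2 change was 0.323 above that of first introns (SD 0.060) and below that of last introns (-0.499, SD 0.012), or 0.439 and -0.383 without HFM1 intron 4 and 0.518 and -0.305 without ROS1 intron 26 as well. Within genes that hold both classes the differences were 0.198 and -0.324, a setting not run without HFM1 intron 4 or ROS1 intron 26. The difference from last introns was -0.144 without the 1% with the most intronic reads, and it did not hold when introns with an annotated exon were included, where it was 0.034 (exact permutation p = 0.667). Each of the 4 class differences in exon-free introns separated the groups completely, with an exact permutation p = 0.333, the smallest that 2 against 2 libraries allow.

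**Figure D1:**
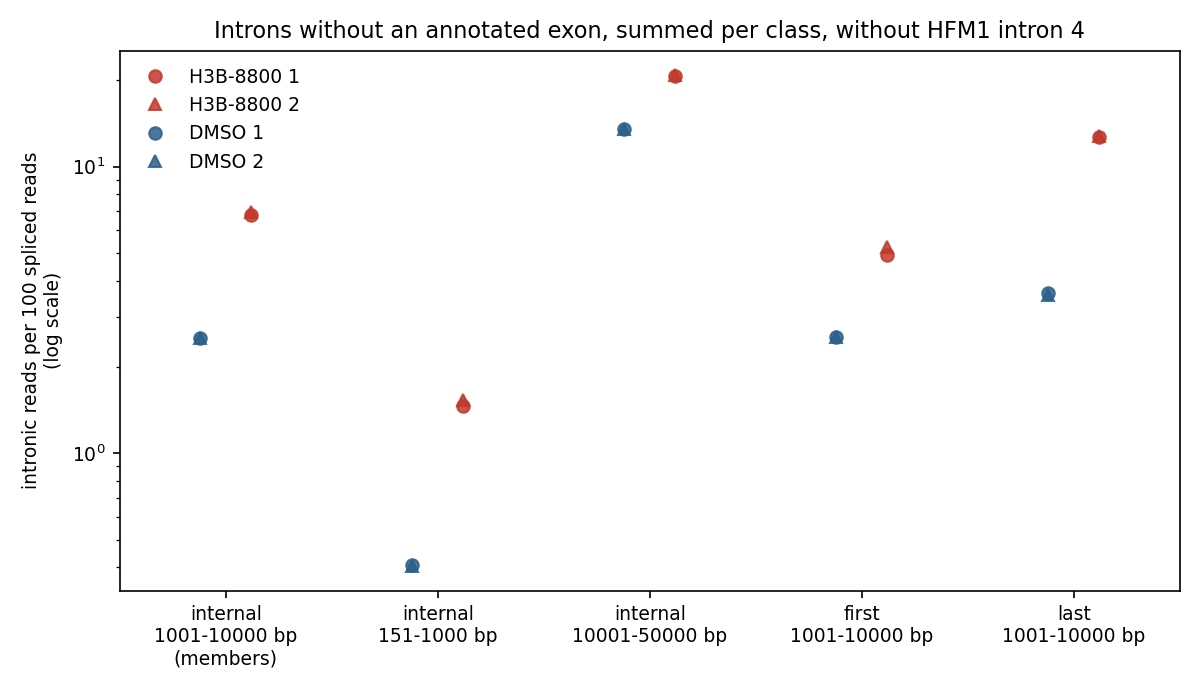
Intronic reads per 100 spliced reads (log axis), summed over exon-free introns of each class without HFM1 intron 4, with 1 point per library (red, H3B-8800; blue, DMSO; circles and triangles, replicates 1 and 2). In mid-length internal introns, labelled as members, both H3B-8800 libraries lay at 6.78 and 6.94, above 2.53 in both DMSO libraries; the gap was widest in short internal introns and narrowest in long ones.

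Within the class the ratio between groups fell with length while the level rose. In exon-free introns of over 1000 and up to 2000 bp there were 3.95 and 4.09 intronic reads per 100 spliced reads under H3B-8800 and 1.21 and 1.19 in DMSO, a ratio of 3.35. In those over 2000 and up to 3000 bp the values were 6.22 and 6.41 against 2.14 and 2.15, a ratio of 2.95. In those over 3000 and up to 5000 bp they were 8.10 and 8.25 against 2.93 and 2.95, a ratio of 2.78. The longest, of over 5000 bp, had the highest level and the lowest ratio: without HFM1 intron 4 they had 14.4 and 14.6 against 6.88 and 6.86, a ratio of 2.11, and with it 1.99. Leaving out ROS1 intron 26 as well, the next most-read intron named here, gave 2.47, so the ratio of the longest introns rested in part on 2 introns. At the edges of the length rule, internal exon-free introns of over 900 and up to 1000 bp had 2.47 ± 0.12 against 0.704 ± 0.017, and the next 100 bp of length 2.59 ± 0.058 against 0.674 ± 0.030. At the upper edge, introns of over 9500 and up to 10000 bp had 22.0 ± 0.14 against 7.99 ± 0.074, and the next 500 bp of length 15.02 ± 0.050 against 6.01 ± 0.15 (SD, n = 2 each).

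By place counted from the end of the gene, the ratios without HFM1 intron 4 and ROS1 intron 26 differed little. The 3944 penultimate exon-free introns had 5.81 and 6.004 intronic reads per 100 spliced reads against 1.90 and 2.00 in DMSO, a ratio of 3.03. Those from the third to the fifth from the end had 6.21 and 6.28 against 2.22 and 2.25, a ratio of 2.79. Earlier introns had 7.55 and 7.78 against 2.95 and 2.90 without HFM1 intron 4, a ratio of 2.62, and 2.38 with it. Without ROS1 intron 26 as well they had 7.36 ± 0.17 against 2.55 ± 0.046 (SD, n = 2 each), a ratio of 2.89, above that of the third to the fifth from the end, so no steady change with place was left. Second introns, counted from the start, had a ratio of 2.40 (4.83 ± 0.12 against 2.01 ± 0.0082), and all later introns 2.76 without HFM1 intron 4 and 2.94 without both introns. These sub-classes were not matched on gene or expression, and their order is a description without a test.

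Genes of 10 to 19 introns had a ratio of 3.10 in their exon-free mid-length introns, genes of 3 to 9 introns 2.59 and genes of 20 or more 2.60 without HFM1 intron 4 and 3.05 without ROS1 intron 26 as well. By spliced depth, introns with a mean of 10 to under 50 spliced reads had a ratio of 3.12 and those with 50 to under 200 a ratio of 3.38. Those with 200 or more had 2.05, which became 2.63 without ROS1 intron 26 and 3.12 without the 1% of these introns with the most intronic reads, so a few introns set that value. By the last bases of the upstream exon, the ratio was 2.76 without HFM1 intron 4 and 3.06 without ROS1 intron 26 as well where that exon ended in AG, 2.71 where it ended in another G and 2.58 where it ended in A, C or T. Where the downstream exon began with G it was 3.03, with C 2.86, with T 2.66, and with A 2.22 without HFM1 intron 4, or 2.66 without ROS1 intron 26 as well.

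**Figure D2:**
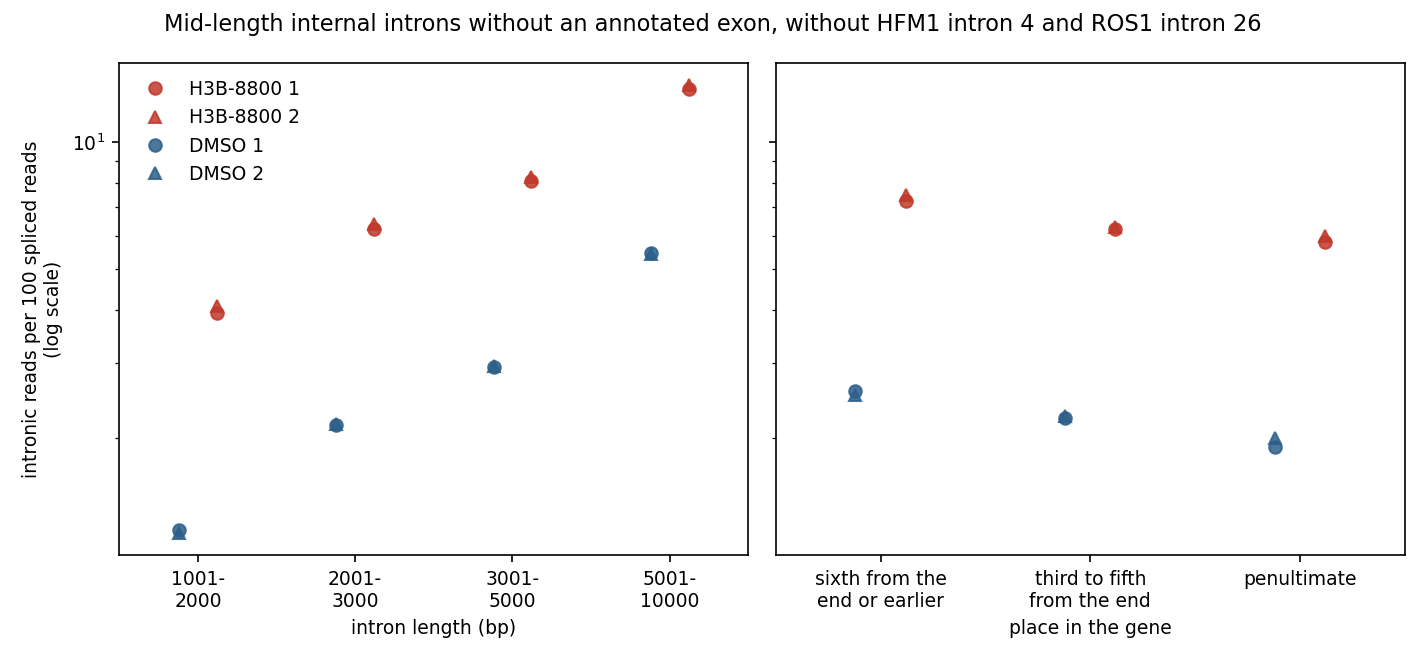
Intronic reads per 100 spliced reads (log axis) in exon-free mid-length internal introns by length in bp (left) and by place counted from the last intron (right), without HFM1 intron 4 and ROS1 intron 26, with 1 point per library. The gap between red H3B-8800 and blue DMSO points narrowed from a ratio of 3.35 in the shortest introns, up to 2000 bp, to 2.47 in the longest, over 5000 bp; by place the ratios were 2.89 in earlier introns, 2.79 in the third to the fifth from the end and 3.03 in penultimate ones.

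Single introns were tested where both kinds of read had a mean of at least 10, which left 3958 of the 56393 introns, in 2706 genes. The intronic-to-spliced ratio rose in 2410 and fell in 63 (edgeR, quasi-likelihood, with Benjamini-Hochberg adjustment over all introns tested and a threshold of 0.05). Rises made up 60.9% of the tested mid-length introns against a background of 56.5% of all 9937 introns tested, and falls 1.59% against 2.88%. Their median log2 change was 1.78 (quartiles 0.77 and 2.92) against 1.62 over all introns. Of the 3958 introns, 1627 reached the mean only through their H3B-8800 libraries and 139 only through their DMSO libraries, so these counts describe introns that could be tested, not the class. In the 1480 exon-free introns among them 959 rose and 12 fell, with a median of 2.11, or 2.09 with introns at 0 in both DMSO libraries set to their lower bound. Scaling each kind of read to itself (TMM), which centres the changes, moved the median of all introns from 1.62 to 0.20 and left 880 rises and 450 falls, 66.2% of calls against 97.5%. The counts are thus rises against the library totals, not against the typical intron.

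Among introns with a mean of at least 50 spliced reads, which does not depend on intronic reads, both H3B-8800 libraries had more intronic reads, scaled to the library totals, than both DMSO libraries in 4528 of 12497 (36.2%, against a background of 33.8% of 32819 introns). They had fewer in 494 (3.95% against 4.19%), and 2678 introns (21.4%) had no intronic read at all. In the 7913 exon-free ones the order was higher in 2366, or 29.9%, and lower in 239. These shares lay near those of all introns.

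**Figure D3:**
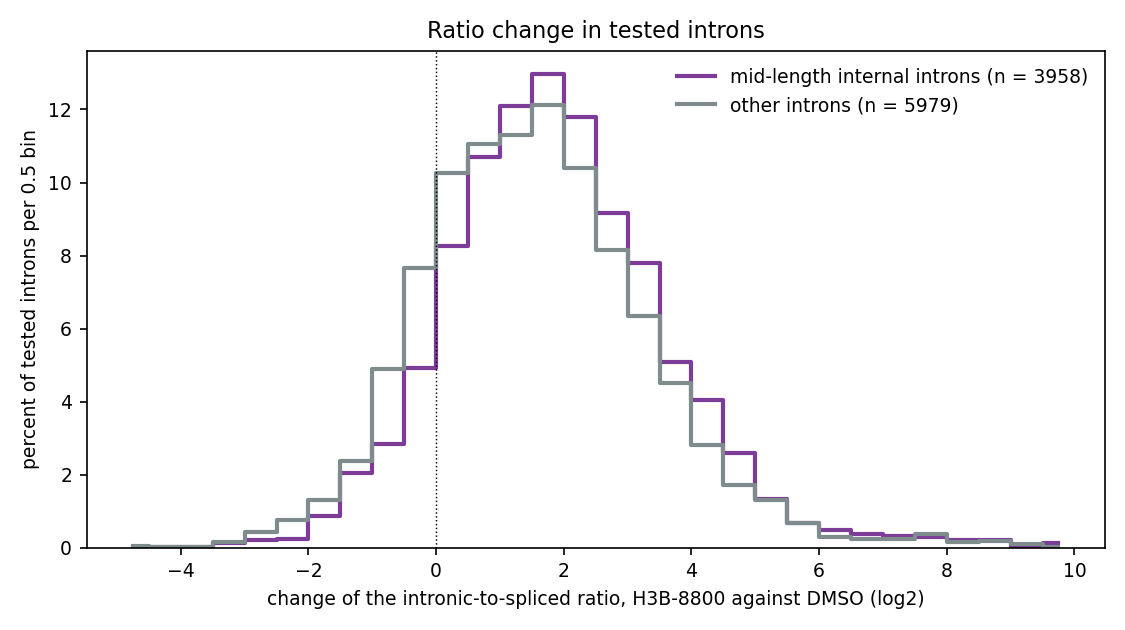
Distribution of the change of the intronic-to-spliced ratio (x axis, log2, H3B-8800 against DMSO) in tested introns, as percent of introns per bin of 0.5 (y axis), for 3958 mid-length internal introns (purple) and 5979 other introns (grey). Most of both curves lies above 0, and the purple one is shifted slightly to the right, with a median of 1.78 against 1.62 over all introns.

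Intronic reads alone, against the library totals, rose in 2512 of the 4704 mid-length introns with a mean of at least 10 and fell in 181 (edgeR, Benjamini-Hochberg), or 53.4% and 3.85% against 48.2% and 5.74% of all 12013 introns tested. Their median log2 change was 1.36, against 1.13. TMM scaling of the intronic reads left 1163 rises and 696 falls, 62.6% of calls in place of 93.3%, and moved the median of all introns to 0.09. Spliced reads, scaled by TMM, rose in 6035 of 26488 and fell in 4871, or 22.8% and 18.4% against 21.5% and 21.7% of all 66136. With library totals in place of TMM the spliced median of all introns was -0.23 and the counts were 3686 and 7214. In both tests no intron passed without H3B-8800 replicate 1 or without replicate 2 (edgeR, 0 calls). Intronic reads then still had an unadjusted p under 0.05 in 1578 or 1467 higher and 174 or 177 lower introns. For spliced reads these numbers were 4960 or 5172 higher and 4235 or 4065 lower. Without these libraries the ratio test called 1711 and 1524 rises.

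The raised ratio came mostly with more intronic reads. Of the 2410 introns with a raised ratio, intronic reads also rose in 1954, were not called in 452 and fell in 4. Spliced reads were lower in 826 of them, higher in 405 and not called in 1179, and 518 had both more intronic and fewer spliced reads. Of the 63 with a lowered ratio, intronic reads fell in 38 and rose in 1, while spliced reads rose in 41 and fell in none. In both splits the spliced calls were scaled by TMM, and the ratio and intronic calls by library totals. With library totals for spliced reads as well, 7214 falls were called over the class, against 4871 with TMM. The splits were not counted that way and depend on the scaling. Raised introns had a median length of 2890 bp and 9.15 intronic reads per 100 spliced reads in DMSO, against 3180.5 bp and 15.6 over all tested mid-length introns. Lowered introns were longer, at 4882 bp, with 77.4 intronic reads per 100 spliced reads in DMSO, and 81.0% held an annotated exon against 62.6% of those tested. By length, 70.4% of tested introns up to 2000 bp were raised (median 2.09), 63.5% of those over 2000 and up to 3000 bp (1.94), 58.7% of those over 3000 and up to 5000 bp (1.71) and 51.6% of those over 5000 bp (1.48). Only 1041 of 21631 introns up to 2000 bp and 1039 of 10281 over 5000 bp could be tested. The filter uses the mean of both groups, so an intron low in DMSO enters only if it is higher under H3B-8800. These shares and the DMSO levels above therefore depend on the filter.

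The largest rises in exon-free introns came in introns nearly free of reads in DMSO, which a ranking by the rise of the ratio favours. TMEM120B intron 3 (chromosome 12, 121748443 to 121750379), in a gene for a membrane protein of fat cell differentiation, had 182 and 165 intronic reads under H3B-8800 and 0 and 3 in DMSO. The rate against the library totals was 123-fold higher (95% exact Clopper-Pearson interval 41.9 to 601, counting error only). Its spliced reads went the other way, 6 and 3 against 40 and 46 (log2 change -2.90, SE 0.45; adjusted p = 2.73e-05 by edgeR and Benjamini-Hochberg). VRK3 intron 8 (chromosome 19, 49989772 to 49992859), in a gene of the vaccinia-related kinase family, had 52 and 66 reads against 0 and 0, at least 20.9-fold higher with 3 reads per DMSO library as the floor. RBM19 intron 20 (chromosome 12, 113915086 to 113918391), in a gene of ribosome biogenesis, had 60 and 59 against 0 and 0, at least 21.2-fold higher. In these 3 introns the groups were far apart, and the DMSO counts are too low to fix the size of the change. The intervals here and below take each read as independent, so they are too narrow where reads were counted in pairs.

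The same pattern was seen in AURKB, TACC3 and NSD2. AURKB, the kinase of the chromosomal passenger complex, had 47 and 53 intronic reads in intron 4 (chromosome 17, 8205391 to 8206490) against 2 and 0, a 53.3-fold higher rate (14.4 to 446), while its spliced reads fell from 242 and 244 to 100 and 113. TACC3, a spindle protein that works with clathrin, had 52 and 59 reads in intron 3 (chromosome 4, 1723871 to 1727707) against 1 and 0, 118-fold higher (20.8 to 4720), and 111 and 140 spliced reads against 200 and 158, a change that did not pass (edgeR, Benjamini-Hochberg adjusted p = 0.351). NSD2, a histone H3 lysine methyltransferase listed as WHSC1, had 128 and 97 reads in intron 5 (chromosome 4, 1930771 to 1935143) against 5 and 6, 21.8-fold higher (12.0 to 44.3). Its spliced reads fell from 672 and 737 to 232 and 273.

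The other 6 introns had between 58 and 112 intronic reads in each H3B-8800 library and at most 4 in each DMSO library. SEC23B, a coat protein of vesicles leaving the endoplasmic reticulum, had 68 and 58 intronic reads in intron 9 (chromosome 20, 18532745 to 18535652) against 0 and 2. AP3D1, a subunit of the AP-3 adaptor of endosomal sorting, had 81 and 91 in intron 5 (chromosome 19, 2130538 to 2132470) against 4 and 4, and its spliced reads fell by 1.60 on the log2 scale. WDFY2, an endosomal protein, had 81 and 84 in intron 10 (chromosome 13, 51756463 to 51758191) against 4 and 2. All 3 of these introns lost spliced reads as they gained intronic ones. FARSA, the alpha subunit of phenylalanyl-tRNA synthetase, had 101 and 112 in intron 4 (chromosome 19, 12928848 to 12930222) against 4 and 0, 56.8-fold higher (21.9 to 210). NAA15, which anchors an N-terminal acetyltransferase to the ribosome, had 97 and 70 in intron 16 (chromosome 4, 139376474 to 139378755) against 0 and 2, with 175 and 155 spliced reads against 164 and 166. NDST1, a heparan sulfate sulfotransferase, had 74 and 66 in intron 5 (chromosome 5, 150535886 to 150539227) against 0 and 2. The spliced reads of NAA15 and NDST1 did not pass the test, so in these the ratio change lay in the intronic reads.

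**Figure D4:**
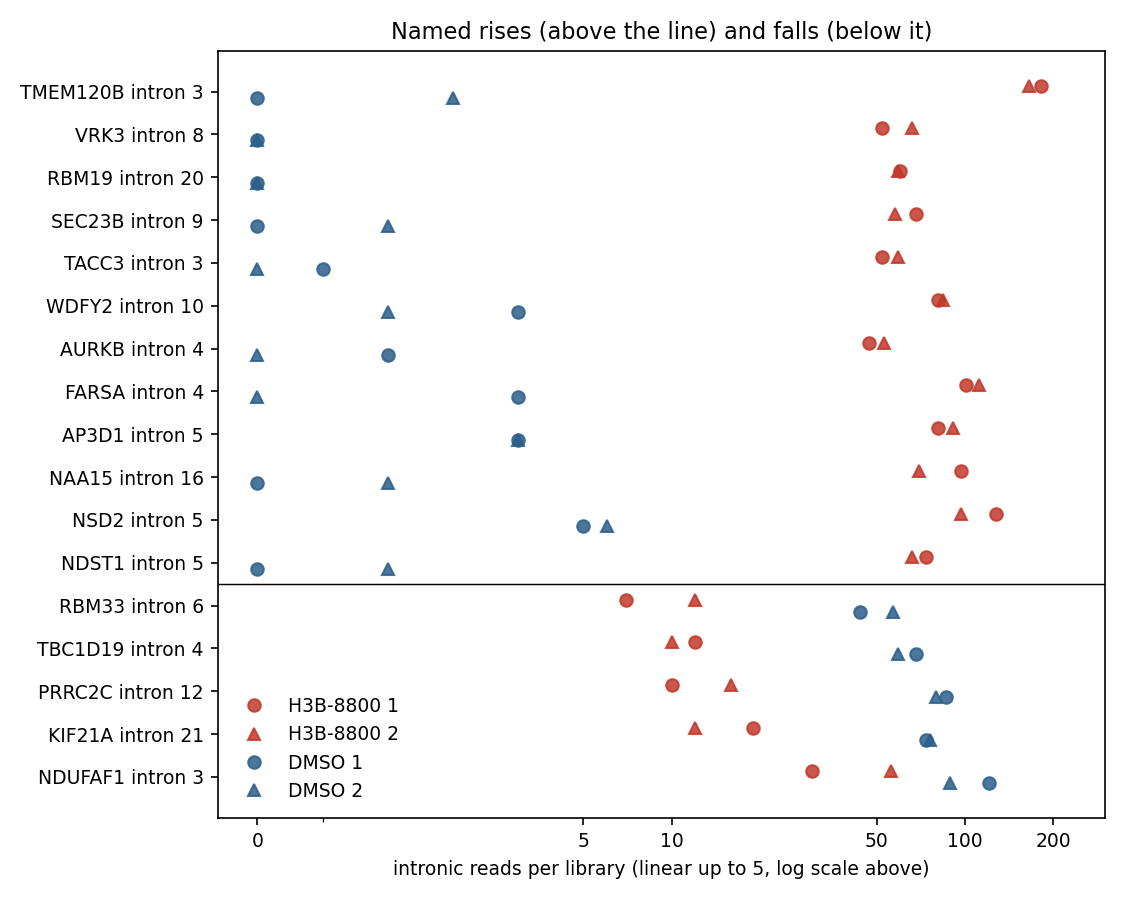
Intronic reads per library (x axis, linear up to 5 and log above) in the 12 exon-free introns named by rule for the largest rise of the ratio (above the line) and 5 introns named for the largest falls (below it), for H3B-8800 (red) and DMSO (blue). The rises went from at most 6 reads in DMSO to between 47 and 182 under H3B-8800, and the groups did not overlap in any of the introns shown, which the rule that chose them required.

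Falls were fewer, and the rule that named those given here required a mean of at least 50 intronic reads in DMSO. Falls named from the gene lists further on started from fewer reads. RBM33 intron 6 (chromosome 7, 155700945 to 155706859), in a gene for an RNA-binding protein, had 7 and 12 intronic reads under H3B-8800 and 44 and 57 in DMSO, with a ratio change of -3.13 (log2, SE 0.57; edgeR, Benjamini-Hochberg adjusted p = 6.88e-04). TBC1D19 intron 4 (chromosome 4, 26659708 to 26666332) had 12 and 10 against 68 and 59, and its ratio fell by 2.83 (SE 0.55). Both groups were apart in each intron, and spliced reads rose in RBM33 (1.09) but were not called in TBC1D19. PRRC2C intron 12 (chromosome 1, 171532962 to 171535427), in a gene for a stress granule protein, was the only exon-free intron among those described and had 10 and 16 against 86 and 80, a ratio change of -2.47 (SE 0.47). Its spliced reads were 107 and 80 against 113 and 100. KIF21A intron 21, of a kinesin gene, had 19 and 12 against 74 and 76 (-2.32). NDUFAF1 intron 3, of an assembly factor of respiratory complex I, had 30 and 56 against 121 and 89 (-1.91); without H3B-8800 replicate 1 the change was -1.18 and no longer passed. The introns of RBM33, TBC1D19, KIF21A and NDUFAF1 held an annotated exon, whose part in these reads was not tested.

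In genes of the DNA replication machinery, 26 of 32 tested mid-length introns rose and none fell, with a median of 2.52, against 60.9% raised and 1.78 over all tested mid-length introns. With TMM within each kind of read 8 rose and 4 fell. Among the lists with at least 10 tested introns this was the highest share of rises (81.2%), but not in 4 of the 6 alternatives that were counted by list: the proteasome list was first with TMM and without H3B-8800 replicate 1, and the helicase list with DESeq2 and without H3B-8800 replicate 2. No difference between lists was tested. Of the introns named from the lists, only those of CHAF1A, SCAF1, PTBP1, PCID2, RECQL, EIF2AK1 and EEF2 are exon-free. The others, with all the lowered ones named, hold an annotated exon, whose part in their reads was not tested. Spliced reads of the replication genes fell in 160 of 292 tested introns and rose in 16 (199 and 12 with library totals), while intronic reads rose in 15 of 35 and fell in 3. Over the class, spliced reads fell in 18.4% and rose in 22.8% (7214 and 3686 of 26488 with library totals). Intronic reads of the class rose in 53.4% and fell in 3.85%. Introns of a gene share spliced reads, so these counts are not of independent introns. CHAF1A, the large subunit of the chromatin assembly factor that follows the replication fork, had 174 and 218 intronic reads in intron 13 (chromosome 19, 4433540 to 4442244) against 76 and 71, and 62 and 62 spliced reads against 162 and 201. Its ratio rose by 2.95 (SE 0.34; edgeR, Benjamini-Hochberg adjusted p = 3.16e-05), through both kinds of read.

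Mitosis genes had 39 raised (67.2%) and 1 lowered ratio among 58 tested introns, with a median of 2.10 (18 and 7 with TMM within each kind). Over all 3958 tested mid-length introns 60.9% were raised, with a median of 1.78 (880 rises and 450 falls with TMM). The list shares here and below stand beside these values, and no difference from them was tested. In NCAPD3, a condensin II subunit, intron 32 (chromosome 11, 134153364 to 134157017) went from 28 and 19 intronic reads to 94 and 110, while spliced reads fell from 261 and 243 to 34 and 30; the ratio rose by 5.09 (SE 0.41). The lowered one was intron 16 of CENPF, a kinetochore protein (chromosome 1, 214652990 to 214655240), with 7 and 4 intronic reads against 40 and 26 and more spliced reads, 1018 and 983 against 602 and 573. Its ratio fell by 3.32 (SE 0.46). Genes of homologous recombination and the Fanconi pathway had 10 raised of 19 tested (52.6%) and none lowered (2 and 3 with TMM). RECQL intron 6, of a DNA helicase gene, had 114 and 102 against 24 and 32.

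Genes of the splicing machinery itself had lower shares of raised ratios than all tested mid-length introns (60.9%) in 3 of their 4 lists, a difference that was not tested. Of SF3b and U2 introns 11 of 20 rose, of other core spliceosome introns 12 of 26 with 1 lower, of SR protein and kinase introns 7 of 18, and of hnRNP introns 11 of 16. These directions depend on the scaling: with TMM within each kind of read the counts of rises and falls were 2 and 3, 1 and 4, 1 and 7, and 1 and 2. U2AF2, which binds the pyrimidine-rich stretch, had 326 intronic reads over both H3B-8800 libraries in intron 5 (chromosome 19, 55661190 to 55662501) and 43 and 33 in the DMSO libraries. Its ratio rose by 2.56 (SE 0.31). This intron holds annotated exons on both strands. EFTUD2, the GTPase of the U5 particle, had 21 and 26 in intron 8 against 2 and 0, a 25.1-fold higher rate (6.56 to 213), and its spliced reads there fell from 172 and 191 to 70 and 79. PRPF3, a tri-snRNP protein, had 4 and 0 in intron 4 against 15 and 31, a ratio change of -3.39 (SE 0.83) that did not pass without H3B-8800 replicate 2 (-2.29).

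Among the regulators, SCAF1, an SR-related factor that binds RNA polymerase II, had 81 and 103 intronic reads in intron 9 against 5 and 11 (ratio change 3.74, SE 0.46). PTBP1, the polypyrimidine tract-binding protein, had 112 and 78 in intron 2 (chromosome 19, 799444 to 803560) against 12 and 14 (3.45, SE 0.39). Spliced reads of the SR list rose in 46 of 83 tested introns and fell in 5 (34 and 10 with library totals), and its intronic reads rose in 9 of 18 (median 0.72) where its ratio rose in 7 (median 0.83). Over the class, spliced reads rose in 22.8% and fell in 18.4%, intronic reads rose in 53.4% and the ratio rose in 60.9%.

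RNA decay, export and helicase genes followed. Of decay and exon junction factors, 10 of 17 tested introns rose (58.8%, against 60.9% over all tested mid-length introns) and none fell (5 and 3 with TMM). EXOSC10, the nuclear exosome's exonuclease, had 35 and 29 intronic reads in intron 19 (chromosome 1, 11069731 to 11070899) against 2 and 4, a ratio change of 4.82 (SE 0.52). Of mRNA export introns 14 of 21 (66.7%) rose (5 and 1 with TMM), among them PCID2 intron 4, of a TREX-2 subunit gene. There spliced reads fell from 256 and 256 to 66 and 47 and intronic reads were 53 and 46 against 22 and 20. DEAD and DEAH helicase genes had 18 raised (78.3%) and 1 lowered of 23 (4 and 1 with TMM). The DDX5 intron 11 whose ends are printed above had 640 and 716 intronic reads against 361 and 423 (chromosome 17, 64500774 to 64502009) and a ratio change of 2.03 (SE 0.24), which did not pass with TMM (0.61). DHX29 intron 11 was the lowered one (20 and 14 against 38 and 46; -1.50), and its call was lost with DESeq2 and without either H3B-8800 library or DMSO replicate 2.

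Translation and stress genes held some of the best-measured rises. EIF2AK1, the haem-regulated kinase of the integrated stress response, had 245 and 335 intronic reads in intron 8 (chromosome 7, 6038672 to 6040891) against 9 and 7, with 804 and 899 spliced reads against 1152 and 1057. Its log2 ratio change was 5.52 (SE 0.34, edgeR, Benjamini-Hochberg adjusted p = 5.27e-07), and its spliced reads, scaled by TMM, were not called. Stress response and tRNA synthetase introns rose in 29 of 41 (70.7%, against 60.9% over all tested mid-length introns) and fell in 1 (10 and 7 with TMM). The fall was TARS1 intron 2 (listed as TARS), with 12 and 10 against 22 and 21, a call lost without H3B-8800 replicate 2 (-1.48). In ribosomal protein genes 18 of 31 rose (58.1%) and none fell, with a median of 0.98 (5 and 9 with TMM).

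The RPL11 intron 3 printed above (chromosome 1, 23694792 to 23695797) went from 44 and 42 intronic reads to 386 and 398, beside 28214 and 28676 spliced reads in DMSO and 23066 and 25630 under H3B-8800. Its ratio rose by 3.41 (SE 0.20). It thus went from 0.156 and 0.146 to 1.67 and 1.55 intronic reads per 100 spliced reads, still a small part of the gene's reads. This intron lies in an exon of a retained_intron transcript, and ribosomal protein genes have processed copies that may share reads. Initiation and elongation factor introns rose in 19 of 30 (63.3%, against 60.9% over all tested mid-length introns) and fell in 1 (7 and 4 with TMM). EEF2 intron 11, of the elongation factor that moves the ribosome, had 94 and 128 against 8 and 10 (3.79, SE 0.33).

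Protein folding and breakdown genes were similar. Chaperone introns rose in 10 of 17 (58.8%) and fell in 2 (5 and 4 with TMM), proteasome introns in 10 of 15 (66.7%) with none lower (6 and 1 with TMM). Over all tested mid-length introns 60.9% rose. CHORDC1 intron 2, of an HSP90 partner (chromosome 11, 90211319 to 90214017), went from 11 and 12 intronic reads to 66 and 72 while its spliced reads fell from 367 and 327 to 82 and 100, a ratio change of 4.50 (SE 0.39). PSMA6, a subunit of the 20S core, had 232 and 189 in intron 2 (chromosome 14, 35310896 to 35312880) against 10 and 5, a change of 5.19 (SE 0.38). CANX intron 6, of the calnexin gene, was lower (12 and 11 against 21 and 26; -1.44); its call was lost with DESeq2 and without either H3B-8800 library or DMSO replicate 2. Only 3 apoptosis introns could be tested, of which BAK1 intron 4 rose (24 and 23 against 6 and 2; 2.88, SE 0.77), a call lost with TMM (1.48).

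**Figure D5:**
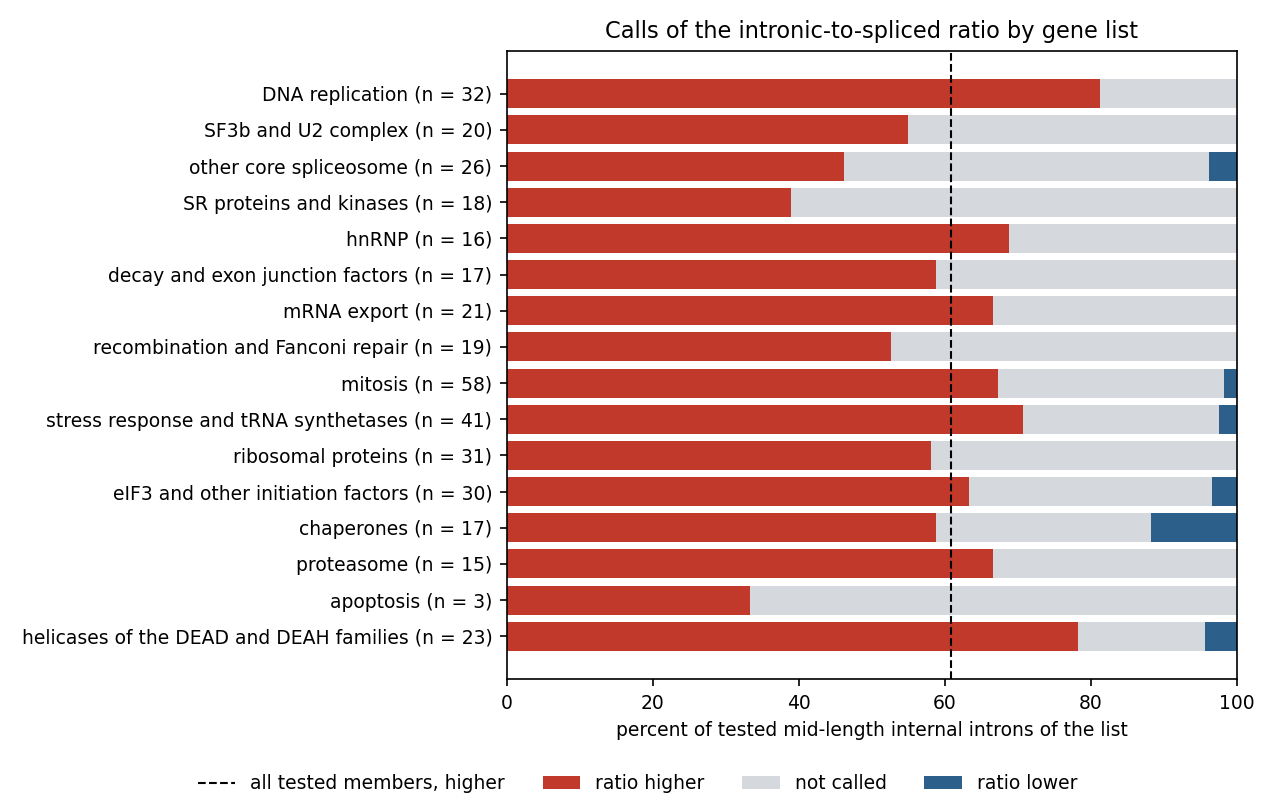
Percent of tested mid-length internal introns of each gene list (x axis) with a higher (red), uncalled (grey) or lower (blue) intronic-to-spliced ratio under H3B-8800, with the number tested beside each list; the dashed line marks 60.9%, the share of rises over all tested mid-length introns. DNA replication had 26 of 32 raised and SR proteins and kinases 7 of 18, an order of lists that changed with the processing.

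Some mid-length introns held many reads without the compound. ROS1 intron 26 (chromosome 6, 117344263 to 117352989), in a receptor tyrosine kinase gene, had 2648 and 2683 intronic reads under H3B-8800 and 3981 and 4053 in DMSO, beside 192, 205, 211 and 215 spliced reads. Its intronic reads fell by 0.50 (SE 0.07; edgeR, Benjamini-Hochberg adjusted p = 1.37e-04), while the ratio change of -0.49 did not pass (adjusted p = 0.0676 by the same test); it passed with counts halved (-0.49) and with TMM within each kind of read (-1.91). EXOSC10 intron 9 (chromosome 1, 11082879 to 11087447) had 1044 and 1032 against 449 and 399, and its ratio rose by 2.65 (SE 0.31). VRK2 intron 5 had 253 and 291 against 268 and 242. Its ratio rose by 1.01 with fewer spliced reads (39 and 41 against 98 and 57), a call that was lost with DESeq2 and without either H3B-8800 library or DMSO replicate 1, and was -0.40 with TMM. CAMLG intron 2, of a tail-anchored protein receptor, had 64 and 88 against 176 and 178, and its ratio fell by 1.80 (SE 0.37). These 4 introns were named by rule for the most intronic reads per 100 spliced reads in DMSO, among exon-free introns with means of at least 100 intronic and 50 spliced reads there. They moved in different directions.

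In 3 exon-free introns, chosen for the smallest change of the ratio among well-read ones, both kinds of read moved together or not at all. POFUT2 intron 4, of a protein fucosyltransferase gene, had 91 and 89 intronic reads against 54 and 46 and 44 and 45 spliced reads against 25 and 26, and both kinds rose (0.94 and 1.13). RTN4 intron 2, of a reticulon gene, had 96 and 95 against 50 and 58, and 966 and 1037 spliced reads against 570 and 522, which rose as well (0.92 and 1.20). FARSB intron 2, of the beta subunit of the same synthetase as FARSA, had 58 and 59 against 71 and 102, and neither kind was called.

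Introns of the same gene often differed. Of the 2706 genes with a tested mid-length intron, 1791 had at least 1 raised and 60 at least 1 lowered. Among 251 genes with at least 3 tested, all were raised in 77, some in 161 and none in 13, and 8 genes had both raised and lowered ones. The median SD of the log2 change within these genes was 1.18, against 1.74 over all tested mid-length introns. Introns of a gene share spliced reads that cross several of them, so they are not independent.

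A few genes, chosen after their values were seen, show the range. In KRT7, a keratin gene, all 6 tested introns were raised, by 1.04 to 3.72, and spliced reads fell at each of the 6. Its intron 6 had 2858 and 3353 intronic reads against 843 and 742, whereas in intron 4 intronic reads fell, from 1409 and 1480 to 1151 and 1133, while spliced reads fell from 4120 and 4012 to 1531 and 1598. In TBC1D9B all 6 were raised, within 1.92 to 3.15. XPO6, the exportin of actin, had 4 of 6 raised: intron 4 had 142 and 182 against 16 and 27, and intron 13 had 18 and 14 against 14 and 22. TRIO, a guanine nucleotide exchange factor gene with 35 mid-length internal introns, had 10 tested and 6 raised, with intron 48 at 417 and 490 against 58 and 55 and intron 49, its neighbour, at 18 and 18 against 14 and 8. KRT7 intron 6 and TRIO intron 48 hold an annotated exon, whose part in their reads was not tested, while KRT7 intron 4 and TRIO intron 49 are exon-free.

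ROS1 had 5 of 11 tested introns raised, although its intron 26 lost intronic reads: intron 4 had 50 and 68 against 8 and 7, and intron 30 had 506 and 535 against 452 and 458. Intron 27, next to intron 26, had 124 and 187 against 77 and 66, and its intronic reads rose by 1.21 (edgeR, Benjamini-Hochberg adjusted p = 0.00131). ANKLE2, a nuclear envelope protein gene, had both directions: intron 5 had 64 and 62 against 0 and 0, while intron 2 had 20 and 13 against 46 and 41. Its spliced reads rose at all 5 tested introns, each of which holds an annotated exon whose part was not tested. Introns of 1 gene, measured in the same libraries, could thus differ in direction.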

How the data were processed

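Reads of the 4 libraries were aligned with HISAT2 2.0.4, per the submitters' processing notes, which name the builds hg38 and mm10; the annotation and the counting method are not given in the sources used here. The authors deposited, per intron, a count of intronic reads, a count of intronic plus spanning reads and an RPKM value. The deposited RPKM equals the first count scaled by length and a library total, from which the totals were recovered; spliced reads are the second count minus the first, a reading inferred from the values. Of 142224 listed introns, 18 had no second count. In this class 76.6% to 77.5% of non-zero intronic counts were even, so each fragment probably counted as a pair of reads, which are not independent. Coordinates are hg38, 1-based; 99.9% of introns matched GENCODE release 29, and 98.4% of genes were named by accession from the GRCh38.p14 table. Counting by strand is not stated, so overlapping and antisense genes are uncertain.

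Counts were tested, over all introns whose mean was 10 reads or more, using edgeR 4.0.16 (R 4.3.3; glmQLFit and glmQLFTest, Benjamini-Hochberg, 0.05). The ratio test used 1 model of both counts with terms for library, kind of read and kind by treatment (tested). Intronic reads were scaled to library totals and spliced reads by TMM. The tests were also run on simulated data in which 200 introns were changed, far fewer than were called here. There the ratio test recovered 5% of 2-fold and 52.7% of 4-fold changes. An intron that was not called is therefore not shown to be unchanged. SEs were derived from the F statistic. Floors were 3 reads per library and intervals 95% exact, for counting error only. The intervals used counts that were not halved and took each read as independent. They are therefore too narrow where reads were counted in pairs. The alternatives were DESeq2 1.42.0, a mean of 1 read, halved counts, other scalings, a replicate block and leaving out each library. Chi-square per degree of freedom between replicates was 1.96 with H3B-8800 and 1.86 with DMSO. Counting reads in pairs raises this value by itself, so a difference beyond counting noise was not shown. The p-values measure the spread between these libraries only.

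The class, the 16 gene lists and the tests were chosen with earlier results of these data known. Introns were named by rule: the 12 largest rises among exon-free introns and the 6 largest falls that passed the ratio and intronic tests, with groups apart and a mean of at least 50 reads in the higher group; for each list the raised and lowered intron with the smallest p; the 4 exon-free introns with the most intronic reads per spliced read in DMSO, given means there of at least 100 intronic and 50 spliced reads; and the 3 exon-free introns with the smallest change, given a mean of at least 50 intronic reads in each group. HFM1, the alternatives without it and ROS1 intron 26, and the genes of the last 2 paragraphs were chosen after their values were seen. CPM of marker genes are spliced reads of the gene scaled to equal library size, computed from the deposited counts. PTPRC was not analysed here. 1 of the falls named by rule and 1 marker gene are not reported here.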

Additional observations from a re-analysis of the deposited data

How the results depend on the processing

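The pooled ratio of H3B-8800 to DMSO stayed above 1 in every alternative run. For all mid-length internal introns (2.31) it was 2.47 without the 1% with the most intronic reads, 2.48 with at least 10 spliced reads and 3.60 as a median over introns; for exon-free ones (2.50) it was 2.74, 2.85 and 4.62, and 2.71 without HFM1 intron 4. Without ROS1 intron 26 as well these ratios were 2.39 and 2.86, and the differences from short, long, first and last introns -0.365, 0.899, 0.518 and -0.305. Leaving out these introns was chosen after the data were seen. The differences within genes that hold both classes were not run without them. The median over single introns, 3.60 for all and 4.62 for exon-free ones, was taken only over the 3958 and 1480 of the ratio test. Of the 3958, 1627 passed its read filter only through their H3B-8800 libraries and 139 only through their DMSO libraries. That median therefore depends on the filter and does not describe the whole class. The difference from short internal introns (-0.559) was -0.443 without HFM1 intron 4, -0.298 with exon-holding introns included and -0.264 without the top 1%. From long ones (0.704) it was 0.820 without HFM1 intron 4, 0.447 within shared genes and 0.898 without the top 1%. From first introns (0.323) it was 0.439, 0.446 with exon-holding introns, 0.198 within shared genes and 0.430 without the top 1%. From last introns (-0.499) it was -0.383, -0.324 within shared genes, -0.144 without the top 1% and, with exon-holding introns included, 0.034, the opposite sign; the cause was not tested.

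Counts of changed introns moved more, and the number of introns tested differed between some alternatives. Rises and falls of the ratio (2410 and 63 of 3958 tested) were 1971 and 38 with DESeq2 and 880 and 450 with TMM within each kind. They were 898 and 5 of 18696 with a mean of at least 1 read and 1334 and 52 of 1842 with counts halved. In exon-free introns only, where fewer are tested, they were 959 and 12 of 1480. For intronic reads (2512 and 181 of 4704 tested) they were 1853 and 89 with DESeq2 and 1163 and 696 with TMM. They were 855 and 32 of 19726 with a mean of at least 1 read and 1587 and 158 of 2485 with counts halved. In exon-free introns they were 1042 and 47 of 1770. For spliced reads (6035 and 4871) they were 3249 and 2585 with DESeq2 and 3686 and 7214 with library totals. With 1 library left out, ratio rises ranged from 1524 to 2372 and falls from 41 to 57, intronic rises from 0 to 2730 and falls from 0 to 159, and spliced rises from 0 to 4676 and falls from 0 to 3865. The 0 calls came without H3B-8800 replicate 1 or 2 (edgeR, smallest Benjamini-Hochberg adjusted p = 0.094 and 0.093 for intronic reads, 0.0845 and 0.0827 for spliced reads). The weight of the shared spread, the prior degrees of freedom, then went from 8.71 to 0.948 and 0.946 for intronic reads and from 19.7 to 1.69 and 1.64 for spliced reads.

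Same-numbered libraries did not deviate together (correlation 0.018 for spliced and -0.003 for intronic reads), so they share only a number; with a replicate block the ratio counts were 2262 and 56, the intronic counts 2284 and 156 and the spliced counts 6280 and 5073, and no named intron changed its call. Among the named introns the sign turned in VRK2 intron 5 with TMM (-0.40), POFUT2 intron 4 with TMM (-1.37) and without DMSO replicate 2 (-0.09; range 0.19 to -0.09 with 1 library left out), RTN4 intron 2 without H3B-8800 replicate 2 (0.01) and without DMSO replicate 2 (0.12; range -0.22 to 0.12), and FARSB intron 2 with TMM (-1.33) and without DMSO replicate 1 (-0.02; range -0.02 to 0.20). POFUT2, RTN4 and FARSB had been chosen for changes near 0. Depth limits most of the class: 3958 of 56393 introns had enough reads of both kinds for the ratio test.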
